A study of Mus musculus with 16 samples.

Results

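RNA was compared between caecal epithelial cells of mice that drank ampicillin and mice that drank the vehicle alone, both after a mock gavage. The comparison took the 3 libraries of each of these 2 groups, 6 of the 16 samples of the series, and every gene whose mean over the 9 RNA libraries was at least 1 TPM, which kept 12155 of 24091 genes. TPM is a transcript abundance corrected for transcript length and scaled to a fixed total per library. The animals were C57BL/6 mice, an inbred laboratory strain. All of them drank water with Splenda, a sweetener, at 10 g/L as the vehicle, and the ampicillin group also received ampicillin at 1 g/L for 7 days. On day 7 both groups were gavaged with 25% glycerol, the mock treatment, and the cells were collected 6 h later. The labels give no age or sex for the animals, and the vehicle group carries everything but the antibiotic. Another group of 3 libraries, ampicillin with tributyrin, entered only the estimate of the spread, and the 7 chromatin samples were not analysed here. Epithelium was released with DTT and EDTA and then with Dispase, and no sort is described, so other cells of the mucosa could be present.

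The caecum houses dense bacteria that ferment fibre to short-chain fatty acids, and its epithelium burns butyrate, makes mucus and antimicrobial proteins, and takes up ions and water. Ampicillin is a beta-lactam that blocks bacterial cell wall synthesis. In caecal epithelium, genes of interferon signalling, surface fucosylation, detoxification and fuel use are known to respond to the presence of bacteria.

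The cells carried the RNA of large intestinal epithelium. Car1, the carbonic anhydrase of large bowel absorptive cells, stood at 27506, 29716 and 27425 TPM with vehicle and at 28121, 26908 and 29104 TPM with ampicillin, and the epithelial adhesion gene Epcam was above 1100 TPM in each of the 6 libraries. The leukocyte gene Ptprc was at 3.37, 3.60 and 4.74 TPM with vehicle and at 3.49, 3.03 and 4.84 TPM with ampicillin. How deeply each library was sequenced cannot be read from TPM, and no counting interval is given. Between 17242 and 17513 genes were above 0 in each of the 6 libraries. Across the tested genes the log2 values of libraries of 1 group correlated at 0.976 to 0.981 and those of different groups at 0.965 to 0.970, a description across genes, which are not independent replicates. The short entry Mir6236 took 1.24% to 4.48% of all TPM, with its highest shares in vehicle replicate 2 and ampicillin replicate 1, and this moves the values of the other genes slightly. Whether each library stands for its own animal is not stated in the labels, and the p-values rest on the spread among these samples alone, which may be technical.

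Vehicle replicate 2 stood apart in genes of the small intestine. Fabp6, the bile acid binding protein of ileal enterocytes, was at 12.3, 345 and 53.4 TPM with vehicle and at 3.63, 2.22 and 3.24 TPM with ampicillin. Reg3b, an antimicrobial lectin, was at 5.38, 189.6 and 36.3 TPM with vehicle and at 0, 0.355 and 0.0552 TPM with ampicillin. The defensin gene Defa22, a product of Paneth cells, was at 0.531, 16.3 and 6.70 TPM with vehicle and was listed at 0 in each ampicillin library. The fitted log2 difference of Fabp6, ampicillin minus vehicle on the log2(TPM + 1) scale, was -3.98 with this library and -2.76 without it, that of Reg3b -4.98 and -3.78, and that of Defa22 -2.56 and -1.78. A gene is said to be called where its adjusted p, from limma, was under 0.05. The Fabp6 call was lost without ampicillin replicate 2 (adjusted p = 0.0665) or 3 (adjusted p = 0.0552). The Defa22 call was lost when any 1 library other than vehicle replicate 1 was left out, at adjusted p values of 0.0519 to 0.101. Both calls were also lost with only the 6 mock-gavaged libraries in the fit. In Fabp6, Reg3b and Defa22 vehicle replicate 2 was the highest library, replicate 3 came next and replicate 1 was the lowest. Sis, the sucrase-isomaltase of small intestinal brush border, followed the same order at 0.222, 5.66 and 0.869 TPM, and so did the Paneth cell lysozyme gene Lyz1 at 0.219, 4.14 and 1.09 TPM. Over the 37 small intestinal genes in the table, summed TPM was 2159, 2948 and 2138 in the vehicle libraries and 2232, 2162 and 2399 in the ampicillin libraries. By number, 74 tested genes lay at least 2 times above both other vehicle libraries in replicate 2, against 54 in replicate 1 and 48 in replicate 3, on the TPM + 1 scale. The part of this difference in the results was not tested beyond leaving the library out.

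**Figure D1:**
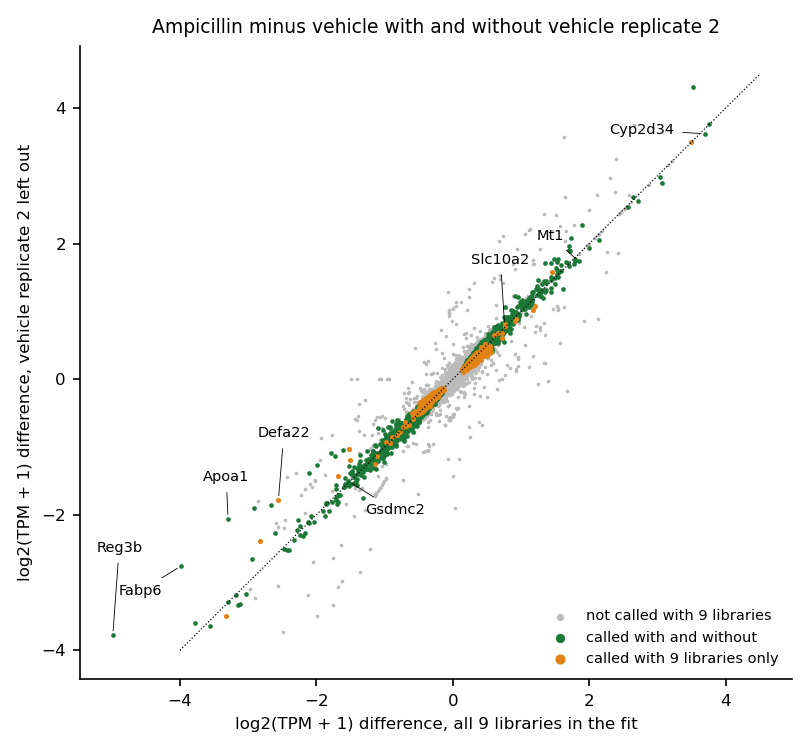
Log2(TPM + 1) difference of each of the 12155 tested genes, ampicillin minus vehicle, with all 9 libraries in the fit (horizontal axis) and with vehicle replicate 2 left out (vertical axis). Green points are genes called both ways, orange points those called only with all libraries, grey points those not called with all libraries, and the dotted line marks equal values. Fabp6, Reg3b, Apoa1 and Defa22 lie above the line, nearer to 0 without that library, while Mt1, Cyp2d34 and Gsdmc2 lie close to it.

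Ampicillin was followed by changes across a large share of the expressed genes, most of them small. Of 12155 tested genes, 2587 passed the threshold of 0.05 on the adjusted p (21.3%). With ampicillin 1343 of these were higher (11.0%) and 1244 lower (10.2%). The 3 ampicillin and 3 vehicle libraries did not overlap for 4963 genes (40.8%). Among them were 2585 of the 2587 called genes, so a statement that the groups did not overlap adds little to a call. The median absolute log2 difference of the called genes was 0.40, and 267 were called with a log2 difference of at least 1 in size, 93 higher and 174 lower. Without vehicle replicate 2, 2275 genes were called, 2037 of the 2587 among them with the same sign, and 244 of the 267 were still called at that size. No called gene changed sign. Without ampicillin replicate 2 the number called higher was 806, and without ampicillin replicate 3 it was 883. In what follows, values of 3 libraries are given in the order of replicates 1 to 3, log2 differences are ampicillin minus vehicle on the log2(TPM + 1) scale ± SE, where the change of weakly expressed genes is understated, and TPM values with ± are means with the SD over n = 3 libraries. Each adjusted p is from limma with Benjamini-Hochberg adjustment over the 12155 genes. Counts called in a gene list are to be read beside the shares of all tested genes, 21.3% called, 11.0% higher and 10.2% lower. The ampicillin values did not overlap the vehicle values for any gene said to have risen or fallen, unless stated. In tissue of this kind fewer cells of a type and less RNA per cell cannot be told apart.

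**Figure D2:**
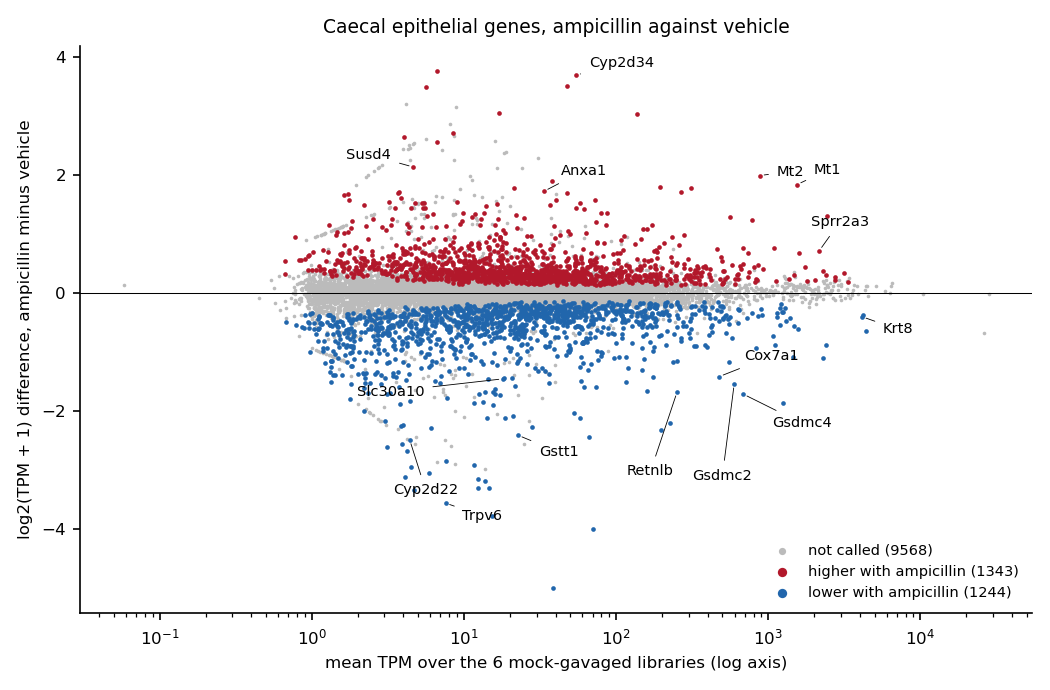
Log2(TPM + 1) difference, ampicillin minus vehicle, against the mean TPM of the 6 mock-gavaged libraries on a log axis for the 12155 tested genes. Red points were called higher (1343), blue points lower (1244) and grey points were not called. Mt1 and Mt2 stand out among abundant genes that rose, and Gsdmc2, Gsdmc4, Cox7a1 and Retnlb among abundant genes that fell.

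Metal handling moved at several points. Mt1 and Mt2, the metallothioneins that bind zinc and copper and are induced by metal through the factor MTF1, rose, while Mt3, another member of the family, fell. Mt1 was at 729, 584 and 712 TPM with vehicle and at 2368, 2542 and 2339 TPM with ampicillin, a log2 difference of 1.84 ± 0.088 (adjusted p = 8.81e-06). Mt3 was at 10.1, 11.8 and 7.87 TPM with vehicle and at 3.28, 2.63 and 2.73 TPM with ampicillin, a difference of -1.48 ± 0.13 (adjusted p = 0.000159). The lowest ampicillin value of Mt1 was thus above the highest vehicle value, and the reverse held for Mt3. Mt1 and Mt2 are close relatives, and the division of reads between them is uncertain.

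Since both genes rose together, their upstream sequence is shown, as RefSeq windows of build GRCm38.p6 that run from 250 bases before to 50 bases after a start site, read 5′ to 3′ on the gene's strand. Capitals mark the metal response element core, TGCACNC or TGCGCNC, on either strand. The Mt1 window (chr8:94178839-94179138, plus strand) held 3 matches and the Mt2 window (chr8:94172368-94172667, plus strand) 4.
Mt1: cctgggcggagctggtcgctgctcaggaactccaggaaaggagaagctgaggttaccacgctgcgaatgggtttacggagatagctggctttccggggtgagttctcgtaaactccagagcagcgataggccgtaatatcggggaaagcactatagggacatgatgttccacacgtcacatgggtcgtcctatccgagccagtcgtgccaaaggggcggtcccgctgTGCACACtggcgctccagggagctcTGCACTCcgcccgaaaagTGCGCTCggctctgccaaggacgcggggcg
Mt2: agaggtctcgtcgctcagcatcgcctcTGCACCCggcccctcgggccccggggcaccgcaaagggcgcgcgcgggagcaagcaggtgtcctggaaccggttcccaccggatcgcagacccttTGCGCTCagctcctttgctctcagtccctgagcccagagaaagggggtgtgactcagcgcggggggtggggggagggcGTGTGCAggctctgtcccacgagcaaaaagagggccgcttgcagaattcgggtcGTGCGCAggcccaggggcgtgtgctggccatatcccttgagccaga
The core stood in 14 of 25 windows of the tested metallothionein and zinc transporter genes, which covered 21 of the 24 genes. It stood in 35.3% of the windows of all tested genes that could be matched and in 25.7% of the 32851 windows in the table. A match is a description of the letters, not evidence of binding.

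Of 24 tested metallothionein and zinc transporter genes, 3 rose and 6 fell (37.5% called against 21.3% of all genes). Their median log2 difference was -0.11, against 0.024 over all tested genes. Slc30a10, an exporter of manganese from the cell, fell from 27.3, 26.8 and 25.9 TPM to 7.03, 11.5 and 9.44 TPM (-1.45, adjusted p = 0.000311). Slc39a4, the zinc importer of the apical membrane, fell from 133 ± 6.74 to 94.9 ± 2.68 TPM, and the basolateral zinc importer Slc39a5 rose from 90.2 ± 2.60 to 119 ± 4.29 TPM. Slc39a11, another member of the importer family, fell by a log2 difference of -0.67 ± 0.048. The importers thus moved in both directions. Slc30a1, the zinc exporter known as a target of the same factor as Mt1, was at 18.9, 23.5 and 21.1 TPM with vehicle and at 17.2, 18.4 and 18.8 TPM with ampicillin and was not called (adjusted p = 0.114), though without vehicle replicate 1 it was, at -0.28 (adjusted p = 0.0438).

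Of 20 tested iron genes, 4 rose and 2 fell, a called share of 30% against 21.3% of all genes. Slc40a1, ferroportin, the exporter of iron to the blood, was at 6.90, 8.17 and 6.38 TPM with vehicle and at 18.5, 19.9 and 21.3 TPM with ampicillin (1.36 ± 0.11, adjusted p = 8.5e-05). Hmox1, the haem oxygenase that frees iron from haem, rose from 1.58 ± 0.0733 to 5.18 ± 0.0905 TPM, and Hfe, a regulator of hepcidin, fell from 7.81 ± 1.39 to 4.38 ± 0.208 TPM.

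Genes of calcium absorption fell more often than they rose. Of 13 tested genes of calcium and phosphate absorption and the vitamin D response, 7 fell and 2 rose, with a median of -0.35, and without vehicle replicate 2 6 fell, with a median of -0.19. S100g, calbindin-D9k, which carries calcium across the cell, was at 369, 317 and 427 TPM with vehicle and at 54.8, 89.04 and 102 TPM with ampicillin (-2.20 ± 0.23, adjusted p = 0.000381). Atp2b1, the calcium pump of the basolateral membrane, fell from 93.1, 106 and 98.2 TPM to 44.9, 50.6 and 54.97 TPM. With Trpv6, the apical calcium channel (-3.55), the entry channel, the carrier and the exit pump were all lower. Vdr, the vitamin D receptor that these genes answer to, was at 146, 158 and 148 TPM with vehicle and at 148, 154 and 162 TPM with ampicillin, overlapping between the groups, and was not called (adjusted p = 0.732). The magnesium channel genes moved apart, Trpm6 falling from 42.96 ± 2.86 to 26.5 ± 2.62 TPM and its relative Trpm7 rising from 12.4 ± 1.06 to 23.7 ± 2.91 TPM.

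Detoxification genes were among the most often called. Of 28 tested cytochrome P450 genes and their partners, 13 rose and 9 fell, of 10 carboxylesterases 4 rose and 5 fell, and of 22 glutathione transferases 2 rose and 17 fell. Leaving out vehicle replicate 1 or ampicillin replicate 3 left 11 transferases lower, and leaving out ampicillin replicate 2 or 3 left 2 carboxylesterases higher. The first pair of families divided, while the transferases fell almost as a whole (median -0.55). The counts of the P450 list and of the transferases that rose were the same without vehicle replicate 2, when 16 transferases fell.

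In the Cyp2d cluster of chromosome 15, 5 of 6 tested genes rose and 1 fell. Cyp2d26 (gene ID 76279, chromosome 15, 82790107 to 82794452) was at 126, 117 and 128 TPM with vehicle and at 402, 411 and 407 TPM with ampicillin (1.71 ± 0.049, adjusted p = 9.9e-07). Cyp2d22 (gene ID 56448, chromosome 15, 82370527 to 82380260) was at 7.80, 7.84 and 8.79 TPM with vehicle and at 0.523, 0.728 and 0.669 TPM with ampicillin (-2.48 ± 0.097, adjusted p = 3.66e-06). The vehicle values of Cyp2d22 were thus more than 10 times the ampicillin values while its neighbours rose. Summed over the 6 genes, TPM was 145, 135 and 148 with vehicle and 524, 547 and 552 with ampicillin. This sum depends less than single values on how reads were divided within the cluster, though members below the filter are left out. Cyp2d9, Cyp2d10 and Cyp2d13, low with vehicle, rose by 2.65, 1.53 and 2.71.

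Other P450 families divided too. Cyp4f14, a fatty acid and leukotriene hydroxylase, was at 143, 125 and 151 TPM with vehicle and at 456, 441 and 549 TPM with ampicillin (1.78 ± 0.11). Cyp4f15, a neighbour on chromosome 17, was at 12.4, 9.09 and 12.5 TPM with vehicle and at 0.417, 0.663 and 0.405 TPM with ampicillin (-3.04 ± 0.15, adjusted p = 1.03e-05). Cyp2c55, an arachidonic acid hydroxylase of large bowel, was the most abundant P450 gene in these cells and fell from 2710.0, 3258 and 3332 TPM to 1582, 1756 and 1729 TPM (-0.87 ± 0.081, adjusted p = 0.000205). The other 4 tested Cyp2c genes rose, by 0.36 for Cyp2c65 to 0.82 for Cyp2c69. Cyp3a13, of the subfamily that oxidises many drugs, rose from 105 ± 15.7 to 237 ± 33.5 TPM. Por, the reductase that feeds electrons to the microsomal P450 enzymes, fell from 138 ± 9.71 to 100.5 ± 3.54 TPM. Cyp1a1, the classical target of the aryl hydrocarbon receptor, was listed at 0 in each of the 6 libraries, and Ahr itself was at 3.23, 3.33 and 3.09 TPM with vehicle and at 3.62, 3.94 and 4.25 TPM with ampicillin and was not called.

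Among the glutathione transferases, which join glutathione to electrophiles, the fall reached members of the alpha, mu, pi, theta and kappa classes. Gstt1, of the theta class, was at 43.03, 32.9 and 40.4 TPM with vehicle and at 6.50, 8.14 and 5.08 TPM with ampicillin (-2.40 ± 0.16, adjusted p = 3.5e-05). Gstm3, of the mu class, was at 221, 198 and 205 TPM with vehicle and at 108, 91.1 and 89.4 TPM with ampicillin (-1.11 ± 0.084, adjusted p = 7.38e-05). The kappa class gene Gstk1 fell from 193 ± 3.47 to 102 ± 11.7 TPM. In each of these 3 genes the highest ampicillin library was below the lowest vehicle library. The exceptions were Gsta1, at 19.3, 31.3 and 16.1 TPM with vehicle and at 61.8, 73.8 and 81.1 TPM with ampicillin (1.70 ± 0.21), and Gsto1, which rose from 501 ± 14.4 to 858 ± 26.4 TPM. Over 23 tested Gst and Mgst genes summed TPM was 6250, 5718 and 5865 with vehicle and 4756, 4922 and 4623 with ampicillin. The alpha and mu members share reads with near-identical copies, so the values of single members are less certain than the sum.

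Other redox genes moved in both directions. Prdx6, a peroxiredoxin that uses glutathione, was at 1740.1, 1789 and 2427 TPM with vehicle and at 851, 949.5 and 983 TPM with ampicillin (-1.08 ± 0.15, adjusted p = 0.00131), with vehicle replicate 3 the highest. Ggt1, which breaks down glutathione outside the cell, was at 5.83, 13.1 and 7.46 TPM with vehicle and at 0.139, 0.270 and 0.225 TPM with ampicillin (-2.95 ± 0.23, adjusted p = 8.5e-05), and without vehicle replicate 2, its highest library, it was still called at -2.65. Gclc, the rate-limiting enzyme of glutathione synthesis, rose from 76.96 ± 2.73 to 124 ± 4.42 TPM, while Nqo1, a quinone reductase, fell from 135 ± 11.2 to 83.9 ± 6.84 TPM. Of 32 tested genes of redox defence and targets of the factor NRF2, 5 rose and 5 fell (31.2% called against 21.3% of all genes). The list thus did not lean one way (median 0.02). The number higher was 3 without vehicle replicate 2 or 3 or ampicillin replicate 1 or 2.

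Among carboxylesterases, which hydrolyse esters and amides of drugs and lipids, Ces2e was at 322, 344 and 367 TPM with vehicle and at 528, 587 and 628 TPM with ampicillin (0.75 ± 0.084, adjusted p = 0.0005). Its neighbour Ces2a was at 149, 168 and 188 TPM with vehicle and at 63.2, 70.8 and 73.3 TPM with ampicillin (-1.27 ± 0.11, adjusted p = 0.000128). Ces1g fell from 348 ± 47.8 to 156 ± 16.1 TPM, and Ces1d from 128 ± 24.5 to 71.02 ± 7.83 TPM. Summed over 9 tested Ces genes, TPM was 1685, 1628 and 1803 with vehicle and 1559, 1670 and 1718 with ampicillin, so the groups overlapped for the sum. In the conjugating enzymes, the glucuronosyltransferase Ugt1a1 rose from 82.8 ± 9.03 to 139 ± 6.09 TPM and Ugt1a6a, made from the same locus with another first exon, fell from 138 ± 10.1 to 80.5 ± 3.40 TPM. The sulfotransferase Sult1a1 was at 1407, 1192 and 1416 TPM with vehicle and at 775, 829.6 and 818 TPM with ampicillin and fell by a log2 difference of -0.72 ± 0.073. Slc35d1, which carries UDP-glucuronic acid into the endoplasmic reticulum, fell from 66.2 ± 8.55 to 33.5 ± 2.95 TPM.

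**Figure D3:**
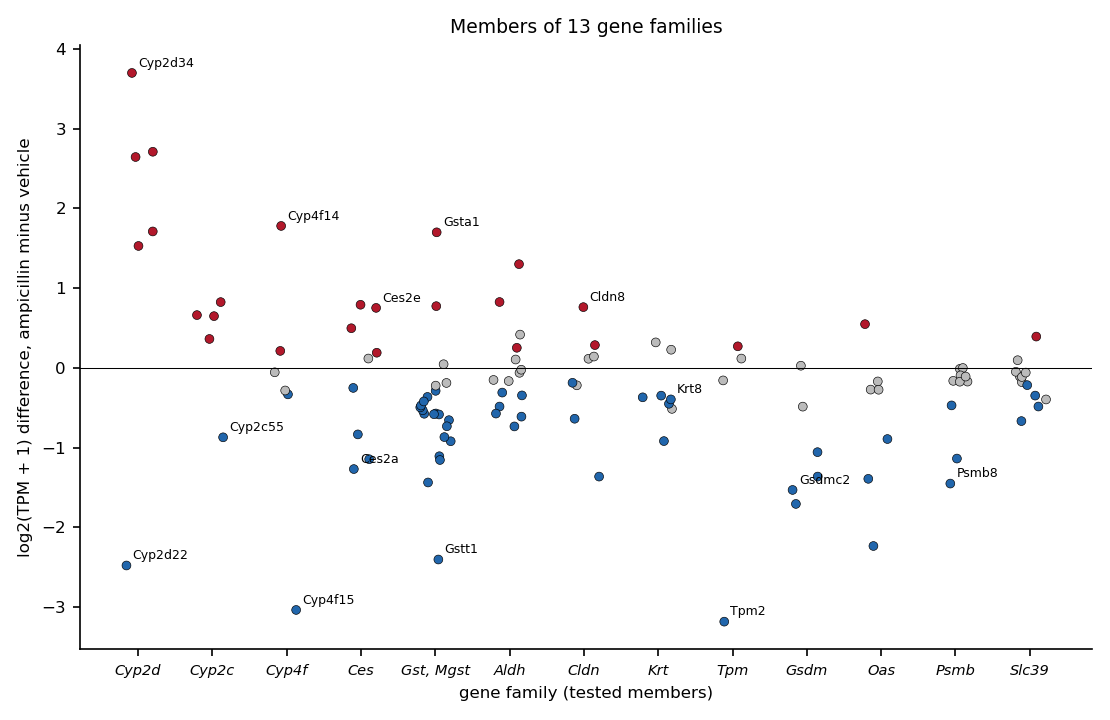
Log2(TPM + 1) difference, ampicillin minus vehicle, of each tested member of 13 gene families, placed in columns with horizontal scatter for legibility. Red points were called higher, blue lower and grey not called. In the Cyp2d, Cyp4f, Ces and Gst columns called members lie on both sides of 0, while all called keratins (Krt), gasdermins (Gsdm) and proteasome beta subunits (Psmb) lie below it.

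Among fuel genes, an isoform of a cytochrome oxidase subunit fell while its counterpart rose. Of 74 tested nuclear genes of oxidative phosphorylation, 14 rose and 1 fell, with a median of 0.13, and without ampicillin replicate 2 the number that rose was 9. The called share was 20.3%, near the 21.3% of all genes. The 1 that fell was Cox7a1, the isoform of cytochrome oxidase subunit 7a best known from muscle and heart, at 765, 638 and 677 TPM with vehicle and at 260.1, 271 and 249 TPM with ampicillin (-1.41 ± 0.095, adjusted p = 4.17e-05). Its counterpart Cox7a2 and the related gene Cox7a2l rose by 0.32 ± 0.047 and 0.41 ± 0.09. With vehicle Cox7a1 was at a higher TPM than Cox7a2 in each library, and with ampicillin it was lower in each. Ndufv3, an accessory subunit of complex I, rose by 0.47 ± 0.048, from 546 ± 13.7 to 756 ± 19.2 TPM.

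Several genes of the phosphagen system rose, and genes of lactate handling moved in both directions. Ckmt1, the mitochondrial creatine kinase, was at 457, 472 and 470.3 TPM with vehicle and at 1089, 1080.1 and 1136 TPM with ampicillin (1.24 ± 0.06, adjusted p = 9.11e-06). The creatine importer Slc6a8 rose from 28.6 ± 5.68 to 56.9 ± 0.172 TPM, and 5 of 9 tested genes of this list rose in all, with 1 falling. Leaving out vehicle replicate 1 or any 1 ampicillin library left 3 of them called higher. Ldha, which turns pyruvate into lactate, was at 1243, 1216 and 1212 TPM with vehicle and at 1996, 1851 and 2045 TPM with ampicillin (0.68 ± 0.048, adjusted p = 4.92e-05). Slc16a3, the lactate exporter, was at 1.02, 1.90 and 0.796 TPM with vehicle and at 6.41, 5.25 and 6.85 TPM with ampicillin (1.70 ± 0.17). In these genes each ampicillin library was above each vehicle library. Of 23 tested genes of glycolysis and glucose uptake 15 rose and 2 fell (median 0.37), whereas of 16 tested genes of butyrate and lactate transport and use 9 fell and 2 rose (median -0.28). Slc16a1, an importer of butyrate and lactate, fell from 298 ± 8.73 to 184 ± 7.50 TPM, and Slc5a8, a sodium-coupled importer of the same acids, from 52 ± 3.62 to 26.6 ± 1.51 TPM.

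Of 30 tested genes known to be induced by hypoxia, 19 rose and 0 fell (median 0.34), against 11.0% of all genes higher. The oxygen-regulated subunit gene Hif1a was at 18.98, 25.7 and 21.2 TPM with vehicle and at 24.9, 25.5 and 29.5 TPM with ampicillin, overlapping between the groups, and was not called (adjusted p = 0.109), though without vehicle replicate 2 it was called at 0.39 (adjusted p = 0.0188). Ankrd37, a small hypoxia-induced gene, was at 17.5, 12.9 and 11.9 TPM with vehicle and at 31.5, 36.3 and 37.7 TPM with ampicillin (1.27 ± 0.14, adjusted p = 0.000532). The windows of Ankrd37 and Ldha are shown because these genes stood among those that rose, with capitals for the hypoxia response element core ACGTG on either strand. The core also lies within the palindrome CACGTG, which other factors recognise. The first Ldha window of the RefSeq table (chr7:46845554-46845853, plus strand) held 5 matches, counting each strand of a palindrome, and the Ankrd37 window (chr8:45999801-46000100, minus strand) 2.
Ldha: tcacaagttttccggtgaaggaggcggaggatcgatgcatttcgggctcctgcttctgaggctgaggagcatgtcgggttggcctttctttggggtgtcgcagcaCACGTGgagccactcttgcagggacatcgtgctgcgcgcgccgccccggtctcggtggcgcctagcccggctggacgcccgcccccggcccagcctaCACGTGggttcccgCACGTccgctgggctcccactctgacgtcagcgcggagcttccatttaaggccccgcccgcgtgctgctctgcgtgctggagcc
Ankrd37: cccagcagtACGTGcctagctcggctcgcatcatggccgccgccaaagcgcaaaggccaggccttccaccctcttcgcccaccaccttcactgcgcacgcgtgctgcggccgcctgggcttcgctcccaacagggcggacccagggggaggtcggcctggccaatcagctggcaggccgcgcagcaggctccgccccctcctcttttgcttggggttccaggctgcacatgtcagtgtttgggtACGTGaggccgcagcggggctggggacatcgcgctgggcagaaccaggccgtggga
The core stood in 19 of 38 windows of 26 tested hypoxia-inducible genes, in 11 of 22 windows of those called, in 25.8% of the windows of all tested genes and in 19.6% of all windows. The listed genes are known to be induced by hypoxia, so these shares describe the list and not the effect of ampicillin.

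Genes of fatty acid synthesis fell or were not called, while those of cholesterol synthesis and uptake rose more often than they fell. Of 26 tested genes of fatty acid synthesis and desaturation, 0 rose and 7 fell, or 4 without ampicillin replicate 1 or 2. The called share was 26.9%, against 21.3% of all genes, the median was -0.02, and 1 rose without vehicle replicate 2. Of 28 tested genes of cholesterol synthesis and uptake, 9 rose and 1 fell (35.7% called, median 0.20). The number that rose was 4 without vehicle replicate 3 or ampicillin replicate 1 or 3. Fads3, of the desaturase family, was at 21.6, 21.8 and 20.8 TPM with vehicle and at 5.55, 5.54 and 4.74 TPM with ampicillin (-1.84 ± 0.10, adjusted p = 1.6e-05), and the stearoyl-CoA desaturase gene Scd1 fell from 17.5 ± 1.83 to 9.37 ± 1.202 TPM. Apob, the scaffold protein of lipoproteins, rose from 12.1 ± 2.66 to 25.1 ± 2.47 TPM. The fall of Apoa1, an apolipoprotein of the small intestine and liver, rested largely on vehicle replicate 2, as its values were 2.29, 75.2 and 9.19 TPM with vehicle and at 0.309, 0.539 and 0.343 TPM with ampicillin. Its log2 difference was -3.30 with that library and -2.06 without it (adjusted p = 0.0121), and leaving out vehicle replicate 3 or any 1 library of the ampicillin or tributyrin groups gave adjusted p values of 0.0519 to 0.0906. The Apoa1 call was also lost with only the 6 mock-gavaged libraries in the fit.

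In bile acid handling, Slc51a and Slc51b, the 2 subunits of the basolateral exporter, rose, from 124 ± 16 to 162 ± 5.93 TPM and from 181 ± 35.8 to 274 ± 8.98 TPM. Nr1h4, the bile acid receptor, was at 71.5, 80.2 and 80.3 TPM with vehicle and at 77.8, 83.5 and 87.6 TPM with ampicillin and was not called. Retinoid genes leaned higher, with 11 of 25 tested rising and 4 falling, against 8 rising without vehicle replicate 2 and 7 without ampicillin replicate 2 or 3. Aldh1a1, which makes retinoic acid, was at 323, 319 and 328 TPM with vehicle and at 774, 752 and 872 TPM with ampicillin (1.30 ± 0.069, adjusted p = 1.24e-05). Rarb, a receptor gene induced by retinoic acid, rose from 0.988 ± 0.200 to 2.12 ± 0.247 TPM, and Rbp4, the carrier of retinol in blood, fell from 2.71 ± 0.228 to 0.427 ± 0.0535 TPM.

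Genes of secreted defence proteins fell more often than they rose. Of 19 tested antimicrobial genes, 10 fell and 3 rose (68.4% called against 21.3% of all genes), and without vehicle replicate 2 8 fell and 3 rose. Without ampicillin replicate 3, 6 fell. Summed TPM of the 35 listed genes in the table was 18805 to 21864 with vehicle and 19259 to 20827 with ampicillin, overlapping between the groups. Retnlb, the goblet cell product RELM-beta that kills gram-negative bacteria, was at 411, 360.1 and 378 TPM with vehicle and at 106, 132 and 123 TPM with ampicillin (-1.67 ± 0.13, adjusted p = 8.85e-05). Wfdc2, a secreted protein with a whey acidic protein domain, was at 129.8, 97.2 and 107 TPM with vehicle and at 17.5, 26.1 and 16.9 TPM with ampicillin (-2.43 ± 0.16, adjusted p = 3.82e-05). Reg4, a lectin of deep crypt secretory cells, was at 3380.1, 3113 and 2799 TPM with vehicle and at 1376, 1614 and 1375 TPM with ampicillin (-1.09 ± 0.14, adjusted p = 0.00104). The vehicle libraries of these 3 genes lay close together, and without vehicle replicate 2 their log2 differences were -1.71, -2.52 and -1.08. For the lectin Reg3g, at 3.58, 54.3 and 9.28 TPM with vehicle and at 0.435, 1.52 and 0.697 TPM with ampicillin, the log2 difference was -2.91 with that library and -1.91 without it (adjusted p = 0.0128). Its call was lost when vehicle replicate 3 or any 1 ampicillin library was left out, at adjusted p values of 0.0526 to 0.0812. The Reg3g call was also lost with only the 6 mock-gavaged libraries in the fit.

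Not all products of this kind fell. Sprr2a3, of the small proline-rich family, one member of which is known to kill gram-positive bacteria, rose from 1602, 1891 and 1419.7 TPM to 2829, 2531 and 2699 TPM (0.72 ± 0.10), and shares reads with near-identical copies. Serum amyloid Saa1 was at 91.8, 95.5 and 94.2 TPM with vehicle and at 161, 239 and 212 TPM with ampicillin (1.10 ± 0.17, adjusted p = 0.00235). Among 5 tested acute phase genes 4 rose, against 11.0% of all genes higher. Pigr, the receptor that carries IgA into the lumen, fell from 1428, 1370.0 and 1343 TPM to 1101, 1122 and 1091 TPM. Dmbt1, a scavenger protein that binds bacteria, fell from 1762 ± 110.2 to 1197 ± 12.2 TPM.

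Of 6 tested genes of NADPH oxidases and nitric oxide 4 fell and 0 rose. Cyba, the p22phox subunit that stabilises the NADPH oxidases, was at 230, 222 and 269 TPM with vehicle and at 64.2, 93.7 and 70.7 TPM with ampicillin (-1.66 ± 0.14, adjusted p = 0.000137). Noxa1, the activator of NOX1, fell from 77.4 ± 6.47 to 52.6 ± 2.84 TPM. Nox1, the catalytic subunit, was at 25.6, 27.3 and 19.3 TPM with vehicle and at 18.8, 14.5 and 14.7 TPM with ampicillin (-0.56 ± 0.17, adjusted p = 0.0497), and its call was lost without vehicle replicate 1 or 2 or ampicillin replicate 2 or 3, or tributyrin replicate 1 or 2, at adjusted p values of 0.0563 to 0.150. With only the 6 mock-gavaged libraries in the fit the Nox1 call was lost too. Of these 3 genes of the complex, Cyba had the largest difference. The fourth to fall was the arginase gene Arg2, at 9.60, 19 and 14.9 TPM with vehicle and at 5.93, 8.27 and 6.86 TPM with ampicillin (-0.91 ± 0.21, adjusted p = 0.0151), with an adjusted p of 0.0513 once vehicle replicate 3 was left out and 0.0554 once ampicillin replicate 1 was. Noxo1, the organiser of NOX1, was at 58.4, 54.2 and 55.6 TPM with vehicle and at 59.3, 63.9 and 61.1 TPM with ampicillin and Nox4, another catalytic subunit, at 1.03, 0.938 and 0.915 TPM with vehicle and at 0.961, 1.64 and 1.31 TPM with ampicillin, and neither was called. The inducible oxidase and nitric oxide synthase genes Duox2 and Nos2 were below the filter, at 0.771, 1.66 and 0.602 TPM and 0.121, 0.355 and 0.0539 TPM with vehicle and at 0.327, 0.393 and 0.212 TPM and 0.0275, 0.0305 and 0.0079 TPM with ampicillin.

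Goblet cell genes fell or were not called, with 13 of 32 tested lower and 0 higher (median -0.30). Muc2, the gel-forming mucin, was at 225, 249 and 166 TPM with vehicle and at 116, 126 and 112 TPM with ampicillin (-0.83 ± 0.19, adjusted p = 0.0155), a call lost when vehicle replicate 1 was left out (adjusted p = 0.0536) and when ampicillin replicate 3 was (adjusted p = 0.0545). The membrane mucin Muc4 fell from 35.1 ± 5.74 to 17.1 ± 1.04 TPM. Spink4, a trypsin inhibitor-like product, was at 5841, 5203 and 5077 TPM with vehicle and at 2979, 3651 and 3735 TPM with ampicillin (-0.64 ± 0.10). Other goblet products did not follow. Tff3, the trefoil peptide, was at 3253, 2334 and 2589 TPM with vehicle and at 2836, 3294 and 3319.7 TPM with ampicillin, and Zg16, a lectin of the mucus, at 1762, 1262 and 898 TPM with vehicle and at 1778, 1640.0 and 1466 TPM with ampicillin. The groups overlapped for both genes and neither was called.

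Enzymes that build surface glycans fell more often than they rose, 15 against 3 of 40 tested, or 14 against 6 without vehicle replicate 2. B3gnt6, which makes the core 3 chain of colonic mucin, was at 10.5, 11.6 and 9.82 TPM with vehicle and at 1.54, 1.56 and 1.08 TPM with ampicillin (-2.29 ± 0.11, adjusted p = 8.81e-06). Fut4, a fucosyltransferase of the Lewis type, fell from 14.5 ± 0.685 to 5.48 ± 0.386 TPM. St6galnac6, a sialyltransferase, was at 87.3, 107 and 92.2 TPM with vehicle and at 40.5, 43.1 and 39.4 TPM with ampicillin (-1.20 ± 0.075). St3gal1, another sialyltransferase, which caps core 1 chains, moved the other way, at 7.85, 7.71 and 7.04 TPM with vehicle and at 17.9, 18.3 and 17.98 TPM with ampicillin (1.16 ± 0.074, adjusted p = 3.33e-05). B4galnt2, which makes the Sd(a) blood group glycan of large bowel, fell from 729 ± 19.2 to 433 ± 10.9 TPM.

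The gasdermin C genes fell as a cluster. Gasdermins are proteins whose cleaved forms open pores in membranes, and the C genes lie next to each other on chromosome 15. Gsdmc2 (gene ID 331063, chromosome 15, 63824328 to 63845193) was at 831, 919 and 902 TPM with vehicle and at 256, 389 and 285 TPM with ampicillin (-1.53 ± 0.15, adjusted p = 0.00022). Gsdmc4 (gene ID 74548, chromosome 15, 63891140 to 63912319) was at 894, 1257 and 988 TPM with vehicle and at 282, 421 and 268 TPM with ampicillin (-1.71 ± 0.18, adjusted p = 0.000375). Gsdmc and Gsdmc3 fell by log2 differences of -1.36 ± 0.18 and -1.06 ± 0.095. In all 4 genes the ampicillin replicate 2 library was the highest of its group and still lay below each vehicle library. These genes are close copies that share reads, so the sum is the firmer value. Over the 6 tested gasdermin genes it was 1897, 2362 and 2077 TPM with vehicle and 639, 942 and 665 TPM with ampicillin. Gsdmd, the gasdermin cut by inflammatory caspases, was at 53.02, 54.2 and 58.9 TPM with vehicle and at 49.1, 62.5 and 58.4 TPM with ampicillin and was not called (adjusted p = 0.881).

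Receptors that sense bacteria moved both ways, with 10 of 34 tested genes higher and 8 lower (52.9% called against 21.3% of all genes). The number higher was 5 without ampicillin replicate 2 or 3, and the number lower was 4 without ampicillin replicate 1 or 3 and 5 without vehicle replicate 3. Naip5, which senses flagellin in the cytosol, was at 10.3, 11.98 and 11.5 TPM with vehicle and at 17.1, 18.5 and 19.9 TPM with ampicillin (0.67 ± 0.082, adjusted p = 0.000818). Nlrp1b, another inflammasome sensor, rose from 2.62 ± 0.205 to 4.13 ± 0.129 TPM, and Nlrp6, a sensor of the same family known from goblet cells, fell from 134 ± 8.89 to 109 ± 3.09 TPM. Tnfaip3, an inhibitor of NF-kappaB signalling, rose from 7.52 ± 0.723 to 11.5 ± 1.08 TPM, while Nfkbia, another inhibitor of that pathway, fell by a log2 difference of -0.43 ± 0.066.

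Interferon-stimulated genes and genes of MHC class I presentation fell far more often than they rose. Of 41 tested interferon-stimulated genes 24 fell and 1 rose (median -0.53), and of 28 genes of the immunoproteasome and MHC class I 16 fell and 1 rose (median -0.33). Bst2, tetherin, which holds budding viruses at the cell surface, was at 17.4, 19.6 and 19.9 TPM with vehicle and at 9.47, 6.94 and 7.08 TPM with ampicillin (-1.19 ± 0.11, adjusted p = 0.000177). Ifi27, a mitochondrial interferon-induced protein, was at 53.5, 50.6 and 57.7 TPM with vehicle and at 17.7, 22.2 and 14.9 TPM with ampicillin (-1.52 ± 0.13, adjusted p = 0.000144). The 1 member that rose was Oas1g, one of the near-identical Oas1 copies, at 9.79, 8.96 and 9.44 TPM with vehicle and at 14.5, 15.2 and 13.1 TPM with ampicillin (0.55 ± 0.064). Its family member Oas1a fell by a log2 difference of -0.89 ± 0.084, and reads of these copies may be divided wrongly. Genes outside the list are not in these counts, and a gene of the Ifit family among them was called higher.

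The windows of Oas3, an antiviral synthetase that fell by a log2 difference of -2.23 ± 0.17, and of Bst2 are shown as examples of the list, with capitals for the interferon-stimulated response element GAAANNGAAA on either strand. Oas3 (chr5:120777610-120777909, minus strand) held 1 match and Bst2 (chr8:71537423-71537722, minus strand) 2.
Oas3: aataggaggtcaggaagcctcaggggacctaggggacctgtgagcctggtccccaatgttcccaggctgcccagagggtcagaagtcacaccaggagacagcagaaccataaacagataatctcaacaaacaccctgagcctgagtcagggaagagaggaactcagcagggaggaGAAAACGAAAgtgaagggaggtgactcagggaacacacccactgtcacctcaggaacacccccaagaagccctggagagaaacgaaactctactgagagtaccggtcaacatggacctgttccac
Bst2: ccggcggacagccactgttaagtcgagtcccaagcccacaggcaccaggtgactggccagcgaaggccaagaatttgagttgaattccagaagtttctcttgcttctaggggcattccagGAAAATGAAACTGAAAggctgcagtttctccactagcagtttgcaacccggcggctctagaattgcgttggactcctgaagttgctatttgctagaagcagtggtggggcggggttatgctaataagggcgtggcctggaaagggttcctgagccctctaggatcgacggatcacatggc
This element stood in 20 of 38 windows of 30 tested interferon-stimulated genes, in 2.96% of windows of all tested genes and in 3.44% of all windows. The list holds genes known for their induction by interferon, so the share describes the list and not the effect of ampicillin.

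In the proteasome, subunits of the immune form fell. Psmb9, an immunoproteasome subunit, was at 30.5, 28.5 and 35.3 TPM with vehicle and at 12.3, 15.3 and 13.6 TPM with ampicillin (-1.14 ± 0.10, adjusted p = 0.000179), and Psmb8 and Psmb10 fell by log2 differences of -1.45 ± 0.093 and -0.47 ± 0.09. Psmb6, which Psmb9 replaces in the immune form, was at 250.1, 218 and 237 TPM with vehicle and at 213, 211 and 200.3 TPM with ampicillin (-0.17, adjusted p = 0.063). Of 40 tested genes of the constitutive proteasome 0 rose and 0 fell, and without vehicle replicate 2 3 fell, Psmb6 among them at -0.23 (adjusted p = 0.0194). The difference between the forms was not itself tested. B2m, the light chain of MHC class I, fell from 706, 791 and 743 TPM to 503, 549 and 523 TPM (-0.51 ± 0.068). In MHC class II, H2-Eb1 was at 2.20, 2.40 and 2.77 TPM with vehicle and at 3.75, 5.71 and 3.58 TPM with ampicillin. It rose by 0.61 ± 0.14, with ampicillin replicate 2 the highest, a call lost without vehicle replicate 1 (adjusted p = 0.0571). Among 11 tested class II genes 3 rose and 1 fell (36.4% called against 21.3% of all genes).

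Keratin genes fell or were not called. Of 7 tested keratins 5 fell and 0 rose (median -0.40). Krt8, a keratin of simple epithelium, was at 4661, 5199 and 4259.7 TPM with vehicle and at 3666, 3684 and 3358 TPM with ampicillin (-0.40 ± 0.076, adjusted p = 0.00707). Krt19 was at 4750.1, 4893 and 4537 TPM with vehicle and at 3562, 3712 and 3698 TPM with ampicillin (-0.37 ± 0.077, adjusted p = 0.0103). These are small changes in very abundant genes. Crip1, a LIM domain protein, was at 1809, 1993 and 2068 TPM with vehicle and at 482, 545 and 600.3 TPM with ampicillin (-1.85 ± 0.12, adjusted p = 3.34e-05), and its fall was among the 12 largest in TPM. Of 47 tested brush border and actin genes 7 rose and 7 fell (median -0.05), a called share of 29.8% against 21.3% of all genes. Gsn, the actin-severing gelsolin, was at 18.8, 22.9 and 17.6 TPM with vehicle and at 55.8, 63.6 and 63.7 TPM with ampicillin (1.59 ± 0.098, adjusted p = 2.67e-05), and its relatives Capg and Vill fell, from 82.5 ± 21.7 to 33.6 ± 5.39 TPM and from 2.11 ± 1.04 to 0.332 ± 0.142 TPM. Tpm1 rose by 0.27 ± 0.058, whereas Tpm2, a tropomyosin with a smooth muscle form, fell by a log2 difference of -3.18 ± 0.11. The smooth muscle gene Des was at 0.0129 TPM or below in each of the 6 libraries.

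Of 36 tested junction genes 10 fell and 4 rose, the latter 1 to 2 without vehicle replicate 1 or 3 or ampicillin replicate 2 or 3. The called share was 38.9%, against 21.3% of all genes. Cldn4, a claudin of tight junctions, was at 51.2, 71.9 and 36.1 TPM with vehicle and at 17.4, 22.6 and 18.1 TPM with ampicillin (-1.36 ± 0.21, adjusted p = 0.00268), with vehicle replicate 2 the highest, and was still called without it (-1.12). Cldn8, a claudin that seals against sodium, was at 6.28, 5.50 and 6.23 TPM with vehicle and at 9.61, 13.01 and 10.2 TPM with ampicillin (0.76 ± 0.11). Of 38 tested genes of sodium, chloride and water transport 2 rose and 6 fell, a called share of 21.1%, close to that of all genes. The number lower was 0 without ampicillin replicate 1 and 3 without vehicle replicate 1 or 2 or ampicillin replicate 2 or 3. Slc9a3, the sodium-proton exchanger NHE3, was at 29.6, 26.1 and 42.4 TPM with vehicle and at 83.6, 74.3 and 111 TPM with ampicillin (1.44 ± 0.19, adjusted p = 0.00116). Car4, a carbonic anhydrase of the apical membrane, fell from 233 ± 18.3 to 124 ± 5.51 TPM. Mal, a proteolipid of apical transport, was at 277, 305 and 414 TPM with vehicle and at 53.8, 68.7 and 72.98 TPM with ampicillin (-2.32 ± 0.16, adjusted p = 5.11e-05). Prkcdbp, also named cavin-3, a coat protein of caveolae, was at 25.4, 23.03 and 21.1 TPM with vehicle and at 1.18, 1.77 and 1.49 TPM with ampicillin (-3.29 ± 0.12, adjusted p = 3.13e-06), among the largest falls on the log2 scale.

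Of 23 tested amino acid and peptide transporters 5 rose and 2 fell (median 0.05), with 8 rising without tributyrin replicate 3. In all 30.4% were called, against 21.3% of all genes. Slc3a1, the heavy chain of the cystine transporter, was at 5.43, 10.8 and 5.20 TPM with vehicle and at 19.2, 18.1 and 25.5 TPM with ampicillin (1.48 ± 0.23, adjusted p = 0.00277), and Slc7a7, a transporter of basic amino acids, rose from 13.7 ± 2.72 to 21.8 ± 1.65 TPM. Of 35 tested genes of ATF4 and serine synthesis 11 rose and 5 fell (45.7% called against 21.3% of all genes). Without vehicle replicate 3 or ampicillin replicate 3, 7 rose. Asns, the asparagine synthetase, rose from 12.9 ± 0.544 to 22.4 ± 1.30 TPM, and Ddit3, the stress factor CHOP, from 22.6 ± 2.32 to 40.8 ± 1.40 TPM. Of 41 tested chaperone and unfolded protein response genes of the endoplasmic reticulum 5 rose and 3 fell (median -0.02). The called share was 19.5%, near the 21.3% of all genes. Hspa5, the main chaperone of the endoplasmic reticulum, was at 242, 249.8 and 289.6 TPM with vehicle and at 248, 243 and 260.4 TPM with ampicillin and was not called. Sat2, of the spermidine acetyltransferase family, was at 7.53, 6.43 and 7.01 TPM with vehicle and at 0.702, 0.837 and 0.517 TPM with ampicillin (-2.25 ± 0.11, adjusted p = 8.39e-06), and the polyamine acetyltransferase gene Sat1 rose from 399.8 ± 12.7 to 589 ± 45.2 TPM. Cps1, the first enzyme of the urea cycle, fell from 18.4 ± 4.73 to 7.59 ± 0.398 TPM.

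Of 40 tested immediate early genes, 22 rose and 1 fell (median 0.40). These genes are also known to be raised by tissue dissociation, and the part of cell isolation in them was not tested. Fos, a subunit of AP-1, was at 560.4, 634 and 498 TPM with vehicle and at 765, 809 and 820.4 TPM with ampicillin (0.51 ± 0.083, adjusted p = 0.00344). Dusp5, a phosphatase of ERK, was at 10.6, 10.4 and 7.60 TPM with vehicle and at 23.03, 23.7 and 24.9 TPM with ampicillin (1.25 ± 0.13, adjusted p = 0.00037). Both were higher in each ampicillin library than in each vehicle library.

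Of 33 tested genes of EGF, BMP, Wnt and Notch signalling 6 rose, 5 fell and 22 were not called (median 0.01). In all 33.3% were called, against 21.3% of all genes. Areg, amphiregulin, a ligand of the EGF receptor, was at 54.8, 61.96 and 42.5 TPM with vehicle and at 110.1, 129 and 118 TPM with ampicillin (1.17 ± 0.13, adjusted p = 0.000434). Bmp2, a ligand of villus and surface epithelium, was at 11.7, 9.87 and 15.1 TPM with vehicle and at 29.7, 29.5 and 36.5 TPM with ampicillin (1.33 ± 0.14, adjusted p = 0.00037), while Smad6, an inhibitor of that pathway, fell from 11.9 ± 1.53 to 5.31 ± 0.422 TPM. Id2 and Id3, inhibitors of differentiation that BMP signals can induce, moved apart, with log2 differences of 0.97 ± 0.17 and -1.08 ± 0.13. Other genes of secreted signals were named by the size of their change and form no list. Edn1, the peptide endothelin 1, was at 37.7, 36.4 and 32.9 TPM with vehicle and at 102, 119.7 and 104 TPM with ampicillin (1.58 ± 0.072, adjusted p = 7.44e-06). Anxa1, an annexin with a part in repair and resolution of inflammation, was at 12.2, 24.4 and 10.7 TPM with vehicle and at 52.8, 52.7 and 48.8 TPM with ampicillin (1.73 ± 0.24, adjusted p = 0.00158), with vehicle replicate 2 above the other vehicle libraries. Penk, the precursor of enkephalins, was at 1.84, 0.590 and 1.81 TPM with vehicle and at 5.34, 4.86 and 8.78 TPM with ampicillin (1.61 ± 0.27). Hpgd, which breaks down prostaglandins, was at 155, 155 and 166 TPM with vehicle and at 286, 309 and 326 TPM with ampicillin (0.95 ± 0.057, adjusted p = 2.46e-05), and the prostaglandin receptor gene Ptger3 rose from 0.636 ± 0.186 to 2.24 ± 0.282 TPM. Susd4, a complement regulator, was at 1.29, 0.817 and 1.13 TPM with vehicle and at 7.62, 9.21 and 7.68 TPM with ampicillin (2.14 ± 0.11, adjusted p = 1.21e-05).

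**Figure D4:**
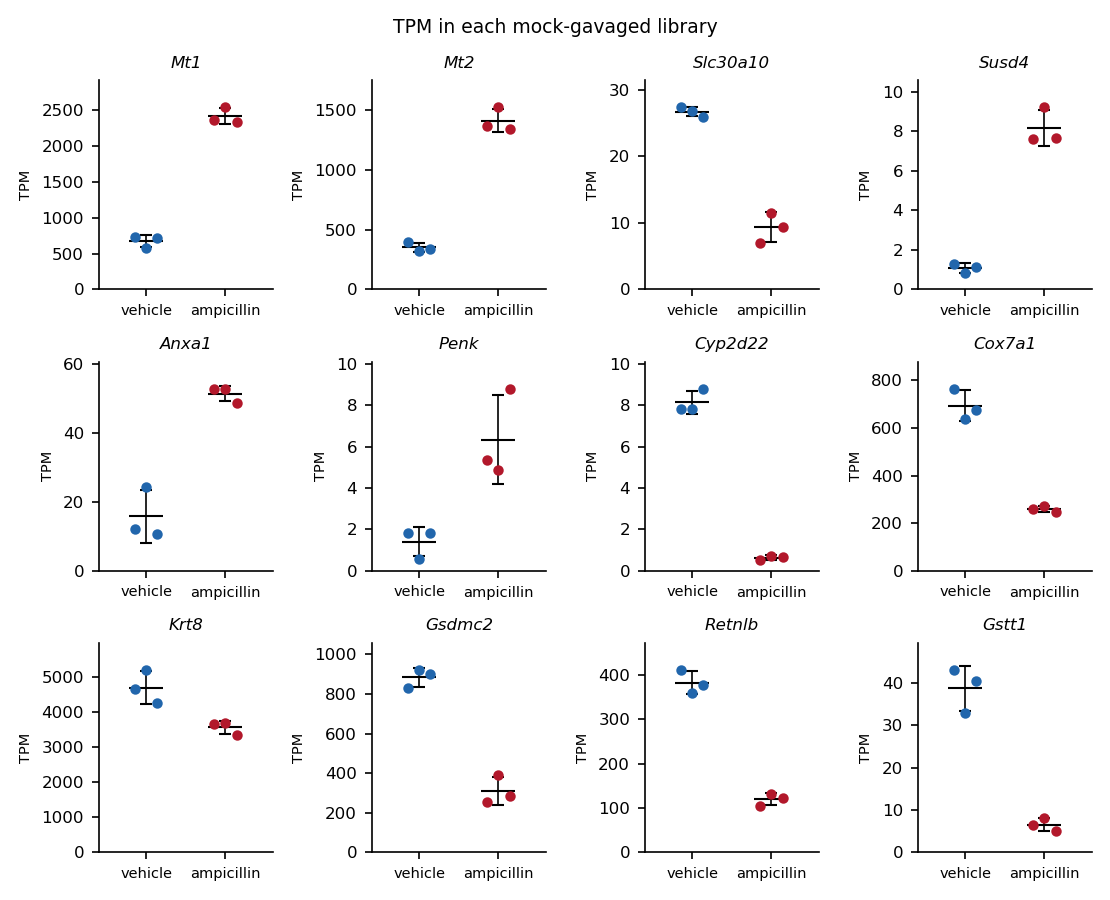
TPM of 12 genes in each of the 3 vehicle (blue) and 3 ampicillin (red) libraries, with linear axes from 0. Horizontal lines are group means and bars the SD over n = 3 libraries. Mt1, Mt2, Susd4, Anxa1 and Penk were higher in all 3 ampicillin libraries, and Slc30a10, Cyp2d22, Cox7a1, Krt8, Gsdmc2, Retnlb and Gstt1 were lower in all 3.

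Hormone genes of enteroendocrine cells divided. Of 19 tested, 6 rose and 3 fell, a called share of 47.4% against 21.3% of all genes. Pyy, peptide YY of the L cells of the large bowel, was at 36.4, 33.7 and 27.9 TPM with vehicle and at 9.01, 10.6 and 11.4 TPM with ampicillin (-1.57 ± 0.18, adjusted p = 0.000539). Insl5, an L cell hormone of colon, was at 0.336, 0.372 and 0.0745 TPM with vehicle and at 3.29, 3.32 and 2.39 TPM with ampicillin (1.67 ± 0.17, adjusted p = 0.000335). Cck, cholecystokinin, was at 3.76, 2.71 and 2.84 TPM with vehicle and at 11.7, 8.46 and 8.28 TPM with ampicillin (1.35 ± 0.15, adjusted p = 0.00052). Pyy thus fell and Insl5 rose, though both are products of L cells, and Gcg, the precursor of GLP-1 in the same cells, was at 36.01, 35 and 23.8 TPM with vehicle and at 43.1, 32.5 and 25.6 TPM with ampicillin and was not called (adjusted p = 0.884). Sst, somatostatin of D cells, rose from 7.43 ± 0.576 to 13.7 ± 1.09 TPM, and Sct, secretin, fell from 188 ± 44.6 to 112 ± 5.59 TPM. Chga, the granule protein shared by enteroendocrine cells, was at 25.5, 19.8 and 25.8 TPM with vehicle and at 24.3, 24.9 and 22.96 TPM with ampicillin, and was not called (adjusted p = 0.906).

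Other cells of the mucosa were followed through their markers. Of 20 tested T cell and intraepithelial lymphocyte markers 0 rose and 0 fell, and the summed TPM of the 30 in the table was 80.7 to 90.5 with vehicle and 60.2 to 110.2 with ampicillin. A share of 22.2%, near the 21.3% of all genes, was called among 9 tested myeloid markers, of which 2 fell. Of these, C1qa, a chain of complement C1q, was at 54.9, 42.9 and 42.4 TPM with vehicle and at 19.7, 20.3 and 16.5 TPM with ampicillin (-1.26 ± 0.20, adjusted p = 0.00314). The chains that pair with it were near 0, C1qb at 0.0693 TPM or below and C1qc at 0.135 TPM or below in the 6 libraries, and the macrophage gene Adgre1 was listed at 0 in all 6. The summed TPM of the 25 myeloid markers in the table was 85.7 to 96.7 with vehicle and 54 to 61.6 with ampicillin, and without C1qa it was 41.8 to 45.5 with vehicle and 34.3 to 44.8 with ampicillin, overlapping between the groups. The 14 B and plasma cell markers summed to 193.3 to 209.2 TPM with vehicle and 147.2 to 182.1 TPM with ampicillin. The 1 tested member was Xbp1, a factor that secretory epithelial cells also use, at 192, 208 and 194 TPM with vehicle and at 175, 179.5 and 145 TPM with ampicillin, not called (adjusted p = 0.142), and the other 13 summed to 1.04 to 1.31 TPM with vehicle and 1.83 to 2.61 TPM with ampicillin.

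Pecam1, known as the endothelial surface protein CD31, was at 3.53, 3.82 and 4.03 TPM with vehicle and at 0.511, 0.636 and 0.612 TPM with ampicillin (-1.59 ± 0.11, adjusted p = 4.02e-05). Other endothelial markers were at or near 0, with Cdh5 listed at 0 in all 6 libraries and Kdr at 0.0376 TPM or below. The 28 fibroblast, smooth muscle and endothelial markers in the table summed to 14.2 to 15.9 TPM with vehicle and 10.3 to 12.3 TPM with ampicillin. Erythroid genes summed to 8.86 to 27.6 TPM with vehicle and to 14 to 38.2 TPM with ampicillin, with 0 rising and 0 falling of 3 tested.

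Several lists stayed near or below the 21.3% of all genes called. Of 82 cytosolic ribosomal protein genes 1 rose and 0 fell, and of 37 heat shock chaperones 2 rose and 2 fell. Of 62 cell cycle genes 0 rose and 4 fell, the latter 1 to 2 when vehicle replicate 1 or 2, tributyrin replicate 1 or any 1 ampicillin library was left out. Mki67, the proliferation antigen, was at 22.2, 27.3 and 19.97 TPM with vehicle and at 25.1, 19.7 and 24.1 TPM with ampicillin, overlapping between the groups. Of 52 histone acyltransferases, deacylases and readers of acyl marks 4 rose and 1 fell, with 1 to 2 rising when vehicle replicate 2 or 3 or any 1 ampicillin library was left out. Of 20 clock genes 2 rose and 2 fell. Not being called does not show that these genes were alike in the groups.

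**Figure D5:**
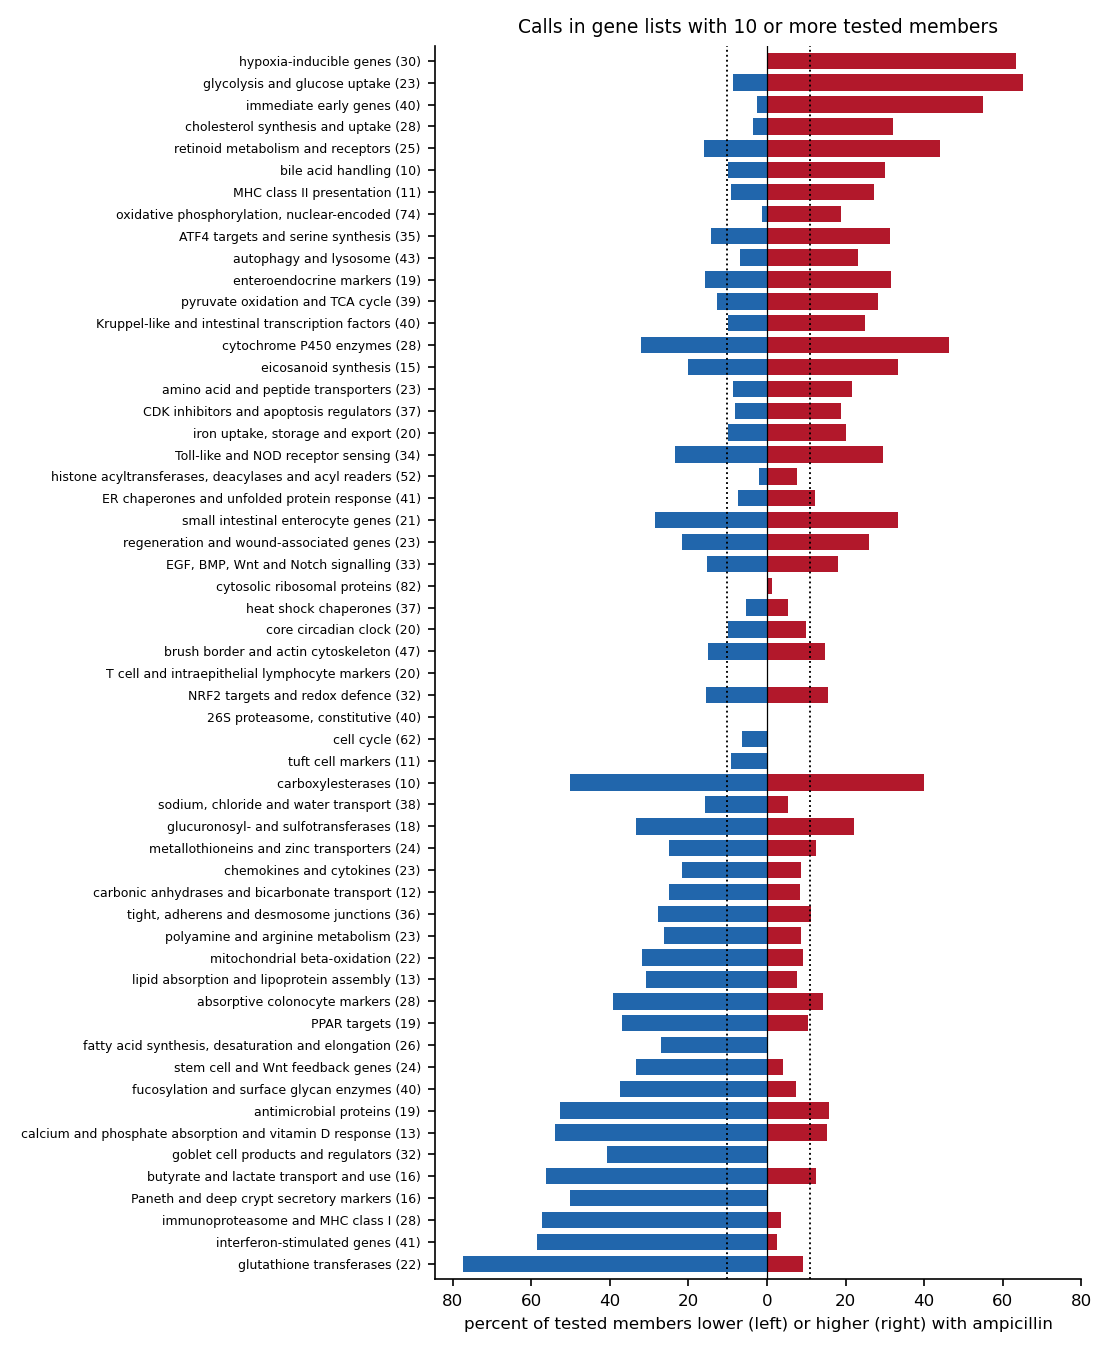
Percent of tested members of each gene list called lower (blue, to the left) or higher (red, to the right) with ampicillin, for lists with 10 or more tested members (number in brackets), ordered by the difference of the percents. Dotted lines mark the shares over all tested genes, 10.2% lower and 11.0% higher. Glutathione transferases, interferon-stimulated genes and MHC class I lie lowest, and hypoxia-inducible, glycolysis and immediate early genes highest.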

How the data were processed

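RNA abundance per gene was analysed as TPM, made and deposited by the authors in 1 table of 24091 entries, with 1 column for each of 9 RNA libraries in 3 groups (vehicle, ampicillin, and ampicillin with tributyrin). The submitters' processing notes name Salmon 0.8.2, DESeq2 1.20.0 and the mouse build mm10, without their roles, and the strand setting is not given in the sources used here. Columns summed to 999833 to 999866 TPM. Sequencing depth cannot be recovered from TPM and is unknown here. Near-identical genes share reads.

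Genes with a mean of at least 1 TPM over the 9 libraries were tested (12155, with 11936 left out). Values were put on the log2(TPM + 1) scale and fitted with limma 3.58.1 in R 4.3.3, with 3 group means over all 9 libraries, no replicate block and a trended prior variance. Ampicillin was set against vehicle with 2-sided tests, and p-values were adjusted over all tested genes by the Benjamini-Hochberg method. An exact permutation test of 3 against 3 libraries cannot go below 0.1, so none was used. The fit was tested on simulated data. Tables and figures were made with Python 3.11.15 and matplotlib 3.10.9.

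The genes of the comparison and the 66 gene lists were chosen with earlier results of these data known, and the lists are described by counts and medians beside all tested genes. Of the lists, 65 had a tested member. By rule, named genes were the 20 highest and 20 lowest log2 differences and the 12 largest rises and falls in TPM among called genes whose libraries did not overlap, up to 5 called members per list, and well-known members that were not called. A few genes the rule takes are not reported here, and further members of families and lists were named after their values were seen. Symbols and coordinates came from RefSeq GRCm38.p6, the same assembly as mm10, which matched 24045 of 24091 entries, and 26 symbols that a spreadsheet had turned into dates were not used as names. Promoter windows came from the RefSeq table. Alternatives covered the pseudocount, filter, scaling, libraries in the fit, replicate block, weights, prior variance and each library left out.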

Additional observations from a re-analysis of the deposited data

How the results depend on the processing

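No called difference of a named gene changed sign under the alternatives run. Of 5695 values of the 287 genes that the rule named, 5326 kept their call and 369 lost it, and 225 genes were called under each alternative. Of 895 values of 45 further genes in the text, 883 kept their side of the threshold, 2 lost the call and 10 gained it. Of 1300 list medians under alternatives, 1273 kept within the spread and 27 moved beyond it.

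The number of genes called was between 1774, without ampicillin replicate 2, and 2810, without tributyrin replicate 3, when 1 library was left out, and 3505 with array weights. The number called higher ranged from 806 without ampicillin replicate 2, through 883 without ampicillin replicate 3, to 1479 without tributyrin replicate 3, against 1343 with all libraries. With only genes of at least 5 TPM tested, 175 genes were called with a log2 difference of at least 1 in size, against 267, with fewer genes tested. With no filter 2564 were called. With only the 6 mock-gavaged libraries in the fit and vehicle replicate 2 left out, an alternative chosen after seeing the data, 2318 were called, and of the called genes in the text Sct, H2-Eb1, Nox1 and Defa22 lost their calls.

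With the replicate number as a block (replicate block) 2707 genes were called, against 2587 without it. Deviations of vehicle and ampicillin libraries with the same number correlated at -0.042, -0.0066 and 0.086 across genes. Those with different numbers correlated at -0.069 to 0.075. These values show no clear pairing by number, but with 3 libraries a group they cannot exclude one. TPM without counts gives no sampling error, and differences in genes near 1 TPM are limited by the pseudocount.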
